A study of Mus musculus with 12 samples.

Results

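Gene expression was compared between mouse blastocysts treated by 20 pulses and control blastocysts, on 8 of the study's 12 arrays. The 8 arrays were chosen by their titles, 4 of each group, and the other 4 carried blastocysts cultured in Ca-free medium. The source names call the treatment 20 Ca2+ pulses, and the study's title concerns Ca2+ oscillations at fertilisation, so the comparison asks which mRNAs differed at the blastocyst stage once such pulses had been given. Strain, pulse form, pulse timing, embryos per array and the handling of control embryos were not given in the sources. Nothing in the labels ties a replicate to its own batch of embryos; a p-value here covers the spread among these arrays alone, and their small number limits the precision.

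At fertilisation the sperm sets off repeated rises of Ca2+ in the egg, through release from the endoplasmic reticulum by inositol trisphosphate receptors. Calmodulin and its kinase CaMKII read these rises and drive exit from meiosis, and pumps in the plasma membrane and the endoplasmic reticulum clear the Ca2+ after each of them. Days later the embryo is a blastocyst, with a trophectoderm that forms the placenta, an epiblast that forms the body and a primitive endoderm that lines the cavity and lays down basement membrane.

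Signals below are linear array intensities scaled to a trimmed mean of 500 on every array. A change is the difference between the group means of the log2 signals. Before the log 32 was added to each signal, which understates the change of dim probe sets. A probe set is said to have risen or fallen, or is called, where limma's adjusted p was under 0.05 over 27808 probe sets of 13599 genes. As RNA of whole blastocysts was measured, fewer cells of a type and less RNA per cell cannot be told apart.

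The control arrays did not form a single tight group. On the first principal component of the 8 arrays, with 25.1% of the variance, the controls lay between 14.28 and 26.93 and the pulses arrays between -27.98 and -7.69. On the second, with 20.3%, controls 1 and 2 lay at 22.85 and 22.19, controls 3 and 4 at -20.09 and -25.03, and the pulses arrays in between. The Actb 3' signal divided by its 5' signal, a measure of how far labelled RNA reaches the 5' end, was 1.586 and 1.666 for controls 1 and 2. It was 2.688 and 2.638 for controls 3 and 4, and 1.492 to 1.685 after 20 pulses (exact two-sided permutation p = 0.0857 for the log2 ratio, 4 arrays against 4). Signals near the 5' end of 18S rRNA were 2409 and 2559, then 878.4 and 883.2, and 2653 to 3688 after 20 pulses, above every control (p = 0.0286 in the same exact test, which with 70 arrangements can go no lower). Of 6 such tests, those of the Gapdh ratio (p = 0.429), the middle (0.743) and 3' (0.0857) signals of 18S rRNA and the hybridization controls (0.143) gave larger or equal exact p than Actb, and after Benjamini-Hochberg adjustment none was under 0.171. On both measures the pulses arrays lay nearer to controls 1 and 2 than to controls 3 and 4. Many of the changes below are therefore also given against each pair of controls, from fits that held only that pair of controls.

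**Figure D1:**
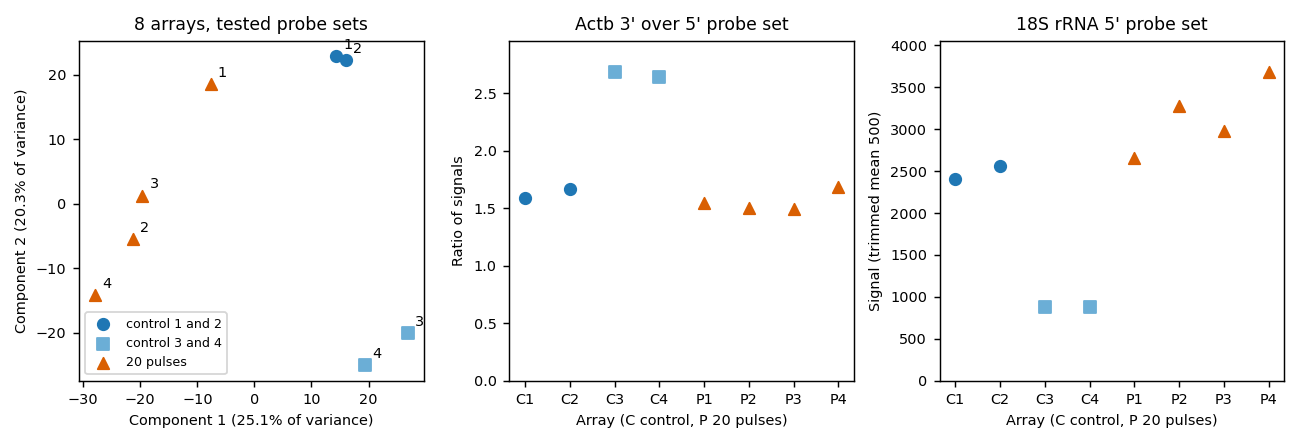
Each point is an array, with controls 1 and 2 as circles, controls 3 and 4 as squares and the 20 pulses arrays as triangles. The left panel plots the scores on components 1 and 2, the middle panel the ratio of the Actb 3' to 5' signals and the right panel the signal of the 18S rRNA 5' probe set. Controls 3 and 4 stand apart from the other 6 arrays in the middle and right panels.

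After 20 pulses 307 probe sets of 232 genes rose, 1.1% of those tested, and 104 of 78 genes fell, 0.374% (58 and 19 of the probe sets were paired with no single gene). The median change was 0.57 among those that rose and -0.45 among those that fell, against -0.03 over all probe sets tested. At least a 1.5-fold change was reached by 149 of the probe sets that rose and 32 of those that fell, and a 2-fold change by 40 and 8. Every pulses array lay above every control array in 303 of the 307, and below in 102 of the 104; over all tested probe sets this held for 5.85% and 5.11%. With no adjustment 15.8% of all probe sets had a p under 0.05.

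Against controls 1 and 2 only, 149 probe sets were called higher (0.536%) and 52 lower (0.187%). Against controls 3 and 4 only, 615 were called higher (2.21%) and 171 lower (0.615%). All 307 increases and all 104 decreases had the same sign against either pair, which share the pulses arrays. Of the 307, 54 were called against both pairs, 31 against controls 1 and 2 alone, 160 against controls 3 and 4 alone and 62 against neither. Of the 104 decreases these counts were 9, 11, 37 and 47. The increases were larger against controls 3 and 4 in 214 probe sets and against controls 1 and 2 in 93, while the decreases were split 54 to 50. The controls themselves differed, with 115 probe sets higher (0.414%) and 204 lower (0.734%) in controls 3 and 4 than in controls 1 and 2. With the Actb 3' to 5' ratio as a covariate 120 probe sets rose, 64 of them among the 307, and 52 fell, 22 of them among the 104.

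**Figure D2:**
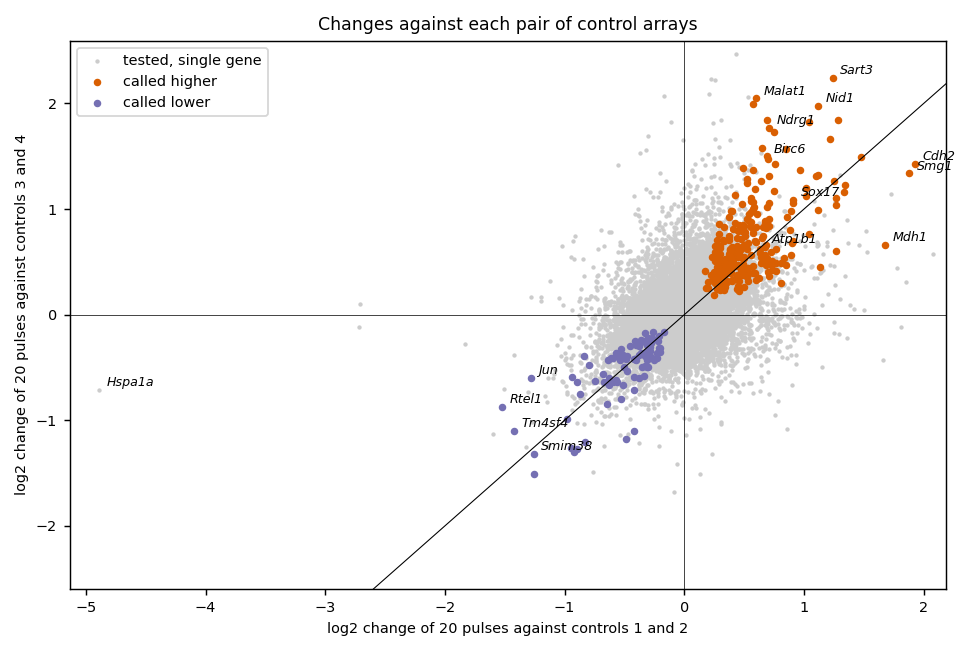
Each point is a tested probe set with a single gene, at its log2 change of 20 pulses against controls 1 and 2 (horizontal axis) and against controls 3 and 4 (vertical axis). Orange points were called higher and purple points lower against all 4 controls, the diagonal line marks equal changes and grey points were not called. The called points lie in the quadrants where both changes have the same sign, and Hspa1a lies far to the left at -4.89 and -0.71 without being called.

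The largest increases were ranked by the smaller of the changes against the pairs of controls, among called probe sets whose groups did not overlap. They were in genes of varied function, and many were read against dim controls. In 6 of the 12 (Chd4, Cdh2, Smg1, Chka, Sart3 and Dnajc13), as in 25 of all 307 increases, the control mean was under the filter of 100, so that these probe sets passed it through their other arrays and the size of their change is uncertain. Smg1, the kinase that phosphorylates UPF1 in nonsense-mediated mRNA decay, read 73.12, 63.53, 96.67 and 132.5 in controls 1 to 4 and 296.3, 349.4, 407.4 and 302.8 after 20 pulses. The groups were far apart. Smg1 rose by 1.61 (SE 0.17, adjusted p = 0.00149), by 1.88 against controls 1 and 2 and by 1.34 against controls 3 and 4. Cdh2, the adhesion molecule N-cadherin, read 39.54, 50.14, 34.67 and 144.7 in the controls and 293.4, 237.2, 211.2 and 308.7 after 20 pulses, a change of 1.68 (SE 0.26, adjusted p = 0.00846). Control 4 was the nearest to the pulses arrays, and the changes against the pairs were 1.93 and 1.43.

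Aebp2, a zinc finger partner of the Polycomb complex PRC2, had an even separation. It read 113.1, 134.7, 108.2 and 166.9 in the controls and 337.6, 304.7, 408.9 and 400.3 after 20 pulses, a change of 1.28 (SE 0.14, adjusted p = 0.00149) and of 1.34 and 1.23 against the pairs. Ctsb, the lysosomal protease cathepsin B, read 87.95, 111.7, 142.7 and 93.48 in the controls and 369.2, 259.3, 339.4 and 244.8 after 20 pulses (change 1.25, SE 0.19, adjusted p = 0.00786). In both genes the lowest pulses array was above the highest control, as the rule for naming required. Ndel1, a dynein regulator of spindles and nuclear movement, read 130.6, 102.7, 126.9 and 42.45 against 304.4, 366.2, 261.8 and 324.1 (change 1.44, SE 0.23, adjusted p = 0.00848). Its changes were 1.22 and 1.66 against the pairs, and its call ended with the Actb ratio as a covariate.

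Nid1, the basement membrane protein nidogen-1, read 144, 146.1, 81.03 and 52.73 in the controls and 363.8, 338.5, 421.8 and 300 after 20 pulses, a change of 1.55 (SE 0.20, adjusted p = 0.00461). Sart3, which recycles spliceosomal U6 particles, read 108.2, 98.28, 39.34 and 31.69 against 200.5, 418.5, 322.6 and 245.7 (change 1.74, SE 0.26, adjusted p = 0.00745). Both were lower in controls 3 and 4 than in controls 1 and 2, and both were called against either pair, Nid1 at 1.12 and 1.98 and Sart3 at 1.24 and 2.24.

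Another 5 genes complete the 12, with calls that ended against controls 1 and 2 only. Chd4, the ATPase of the NuRD chromatin remodelling complex, read 56.07, 50.04, 43.88 and 61.54 in the controls and 330.1, 83.35, 303.5 and 191.8 after 20 pulses (change 1.48, SE 0.27, adjusted p = 0.0165). The pulses arrays differed widely among themselves, and array 2 was the closest to the controls. Against controls 1 and 2 the change of Chd4 was 1.48 (adjusted p = 0.0829), and without pulses array 3 or control 3 the call ended as well (changes from 1.28 to 1.83 with any array left out). Chka, a choline kinase of phosphatidylcholine synthesis, read 131.8, 37.52, 31.62 and 50 against 267.9, 154.5, 237.8 and 265.6, changes of 1.28 and 1.84 against the pairs. Rbm5, a regulator of alternative splicing, read 194.9, 232.2, 69.62 and 167.2 against 578.2, 409.9, 398.4 and 522, changes of 1.04 and 1.82. In Chka and Rbm5 a single array, control 1 or control 3, lay apart from the other controls.

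Dnajc13, a J-domain protein of endosomes, read 52.13 to 85.63 in control and 175.9 to 246.2 after 20 pulses (change 1.21, adjusted p = 0.0206), and the uncharacterised D630023F18Rik 108.5 to 168.1 and 249.7 to 459.6 (change 1.22, adjusted p = 0.0277). The calls of Chka, Rbm5, Dnajc13 and D630023F18Rik each also ended without control 3 and without at least 2 of the pulses arrays. Of the 12 genes, 7 were called against controls 1 and 2 only and all 12 against controls 3 and 4 only. The calls of Cdh2, Smg1, Sart3, Aebp2, Ctsb and Nid1 held under every scaling, model, pair of controls and left-out array, and with no filter. The stricter filter of 300 left out all of these dim probe sets, so it could not test them. Among all 53 named genes that were called, 36 lost the call with the Actb ratio as a covariate; those that kept it were these 6 and Tm4sf4, Alppl2, Tcf25, Rtel1, Mdh1, Prdm14, Atp2b1, Tet1, Atp1b1, Jun and Mrps30.

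**Figure D3:**
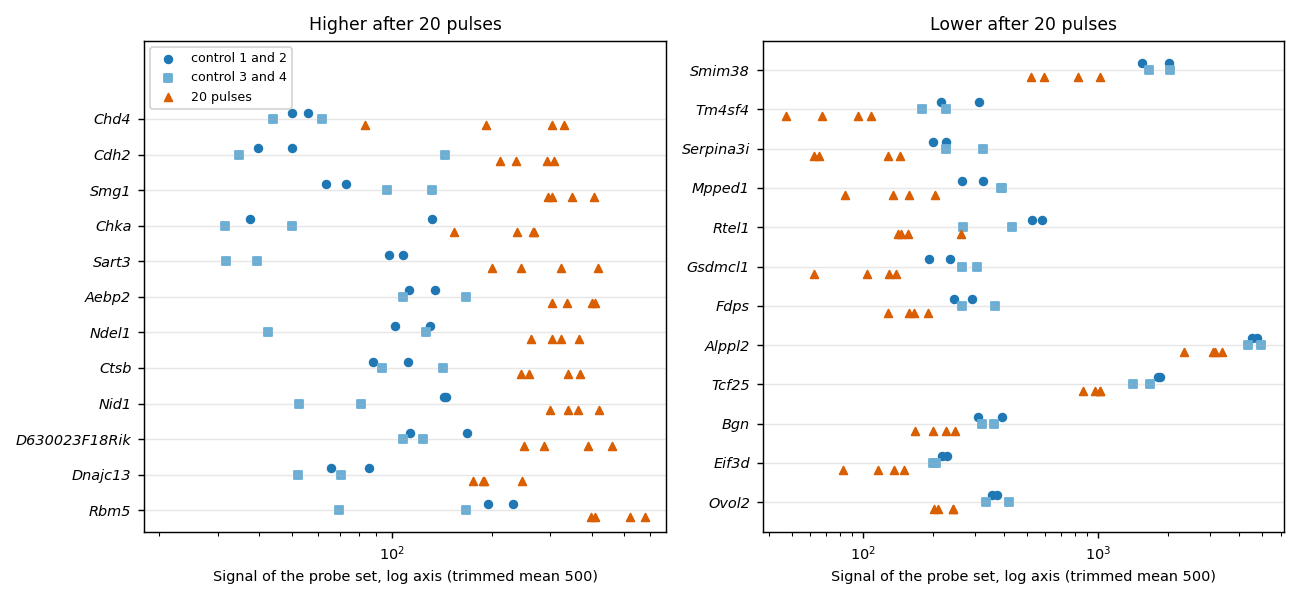
Each row is the named probe set of a gene and each point an array, with the signal on a log axis, for the 12 largest increases (left) and decreases (right) by the smaller change against a pair of controls. Circles are controls 1 and 2, squares controls 3 and 4 and triangles the 4 pulses arrays. The rule for choosing the rows required the triangles to lie on one side of all controls. The nearest come closest in Chka (left) and Rtel1 (right).

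The genes that fell most, chosen by the same rule, were also of varied function. Alppl2, an alkaline phosphatase of the early embryo, read 4772, 4556, 4362 and 4938 in the controls and 3156, 2322, 3379 and 3094 after 20 pulses, so that Alppl2 fell by 0.65 (SE 0.10, adjusted p = 0.00745), at -0.65 and -0.64 against the pairs. Tm4sf4, a tetraspan membrane protein, read 312.6, 216.3, 179.4 and 226.5 against 108.3, 47.38, 67.19 and 95.77 (change -1.26, SE 0.21, adjusted p = 0.00902). Tcf25, a basic helix-loop-helix protein, read 1814, 1848, 1408 and 1668 against 1027, 1020, 970.1 and 869.1 (change -0.77, SE 0.10, adjusted p = 0.00461). The groups were separate in each, as the rule required, and these 3 calls held under every alternative that tested them. The second probe set of Alppl2 was at -0.23 (adjusted p = 0.0679), and the other 4 of Tcf25, among them 1 slightly brighter, were at -0.20, -0.11, 0.05 and 0.36, none of them called.

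Smim38, a small membrane protein, read 1539, 2012, 1653 and 2035 in the controls and 824.3, 588.5, 1025 and 520.7 after 20 pulses (change -1.29, SE 0.22, adjusted p = 0.0103). Its change was almost equal against the pairs, -1.26 and -1.32, but against controls 1 and 2 only the adjusted p was 0.0663. Rtel1, a helicase that unwinds telomere loops, read 580, 525.2, 433.3 and 267.2 against 156.8, 262.7, 142.1 and 145.4 (change -1.20, SE 0.23, adjusted p = 0.0241). Pulses array 2 and control 4 nearly met in Rtel1, and the call ended against controls 3 and 4 only (-0.87). The other 3 probe sets of Rtel1 were not called (-0.13, 0.00 and 0.13). Fdps, the farnesyl diphosphate synthase of the sterol pathway, read 243.9, 293.4, 265.2 and 365.3 against 127.9, 165.8, 157.3 and 189.4 (change -0.75, SE 0.15, adjusted p = 0.0277), and its call ended against controls 1 and 2 only (-0.65).

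The other 6 were the protease inhibitor Serpina3i and the phosphoesterase-like Mpped1 (-1.11 each), the gasdermin Gsdmcl1 (-1.02), the translation factor subunit Eif3d (-0.69), the proteoglycan Bgn and the epithelial zinc finger factor Ovol2 (-0.65 each). Their adjusted p lay between 0.0173 and 0.0447, and none of these 6 was called against controls 1 and 2 only. The decrease of Eif3d was in a dim probe set (mean 212.3 in control), while the bright one of the gene read 7641 and 7230 (change -0.08). Of all 12 genes, 4 were called against controls 1 and 2 only and 9 against controls 3 and 4 only.

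Where the pairs of controls disagreed most, the increase was mostly against controls 3 and 4. Malat1, a nuclear long non-coding RNA, read 2321 and 2405, then 770.8 and 928.8 in controls 3 and 4, and 3817, 3472, 4095 and 3105 after 20 pulses. Every pulses array exceeded every control, with a change of 0.60 against controls 1 and 2 (adjusted p = 0.0153) and of 2.05 against controls 3 and 4 (adjusted p = 1.04e-06). Ndrg1, a stress-responsive gene, read 367, 359.6, 176.1 and 140.2 in the controls and 601.5, 629.5, 618.5 and 612.4 after 20 pulses, changes of 0.71 and 1.77. The DNA-binding protein Arid5b (0.69 and 1.84) and the Rab GTPase regulator Tbc1d15 (0.75 and 1.73) had the same order, and neither they nor Ndrg1 were called against controls 1 and 2 only. Mdh1, the cytosolic malate dehydrogenase, went the other way. It read 526.3 and 454.6, then 1025 and 1028, and 1429, 1765, 1635 and 1741 after 20 pulses, a change of 1.68 against controls 1 and 2 and of 0.66 against controls 3 and 4. The adjusted p of the latter was 0.14. The calls of Malat1, Arid5b, Ndrg1 and Tbc1d15 ended without control 3 and without control 4, and that of Mdh1 without control 1 and without control 2. The calls of Malat1, Arid5b, Ndrg1 and Mdh1 also ended when any single pulses array was left out, and that of Tbc1d15 without pulses array 1, 3 or 4.

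Most increases were read by only 1 of several probe sets of the gene. Of the 232 genes, 208 had another tested probe set, and 15 had at least 2 that rose. The 488 other probe sets of these genes had a median change of 0.10, and 335 of them were above 0. Among the 78 genes that fell, 52 had another tested probe set and 5 had at least 2 that fell, and 71 of the 104 others were below 0 (median -0.11). Among the 12 largest increases, further probe sets were called in Chd4 (0.77), Chka (0.69) and Rbm5 (1.28 and 0.89). The brightest probe set of Rbm5 went the other way without being called (2783 in control and 2396 after 20 pulses, change -0.21). The brightest of Chka (1428 and 1317, -0.11) and Ctsb (2531 and 3145, 0.30) were not called, nor was another of Chd4 (522.4 and 521.4, -0.01). In Smg1 the other probe sets were brighter and little changed, at 1176 and 963.1 in control and 1295 and 1062 after 20 pulses. The bright probe sets of Sart3 (1546 and 1388), Nid1 (3990 and 3959), Ndel1 (1637 and 1603) and Aebp2 (3193 and 3339) were likewise not called. The second probe set of Cdh2, at 119.6 and 187.6, had a change of 0.54 (adjusted p = 0.0785). Where each probe set lies on its transcript was not analysed here.

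Further genes had at least 2 called probe sets. Atp1b1, the beta subunit of the Na+/K+ pump that drives fluid into the blastocoel, read 1648, 1515, 1509 and 1710 in the controls and 2440, 2435, 2622 and 2617 after 20 pulses, an increase of 0.65 (SE 0.08, adjusted p = 0.00268) that was 0.67 and 0.64 against the pairs. A second probe set rose by 0.53, from 2328 to 2573 in control to 3300 to 3742, while 3 others, among them the brightest, were at -0.11 to 0.08. Both called probe sets of Pon2, a lactonase of membranes, rose (0.65 and 0.84), as did 2 of 4 of Glo1, the glyoxalase that detoxifies methylglyoxal (0.44 and 0.49). Luc7l3, a splicing factor, rose by 0.37 and 0.45 and the chromatin protein Hmga2 by 0.22 and 0.29.

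Among the genes that fell, all 3 probe sets of Zfand2a, a stress-inducible zinc finger protein that binds the proteasome, were called (-0.34, -0.33 and -0.32). Its brightest read 2305, 2322, 2076 and 2305 in the controls and 1869, 1744, 1773 and 1704 after 20 pulses. In Tgm2, a Ca2+-dependent transglutaminase, 3 of 5 probe sets fell (-0.76, -0.64 and -0.47) and the other 2 were at -0.35 and -0.13. Pdxk, the kinase of vitamin B6, fell in 2 of 3 (-0.59 and -0.34) and the pantetheinase Vnn1 in both (-0.42 and -0.30). Each called probe set of Zfand2a, Tgm2, Pdxk and Vnn1 had all pulses arrays below all controls.

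**Figure D4:**
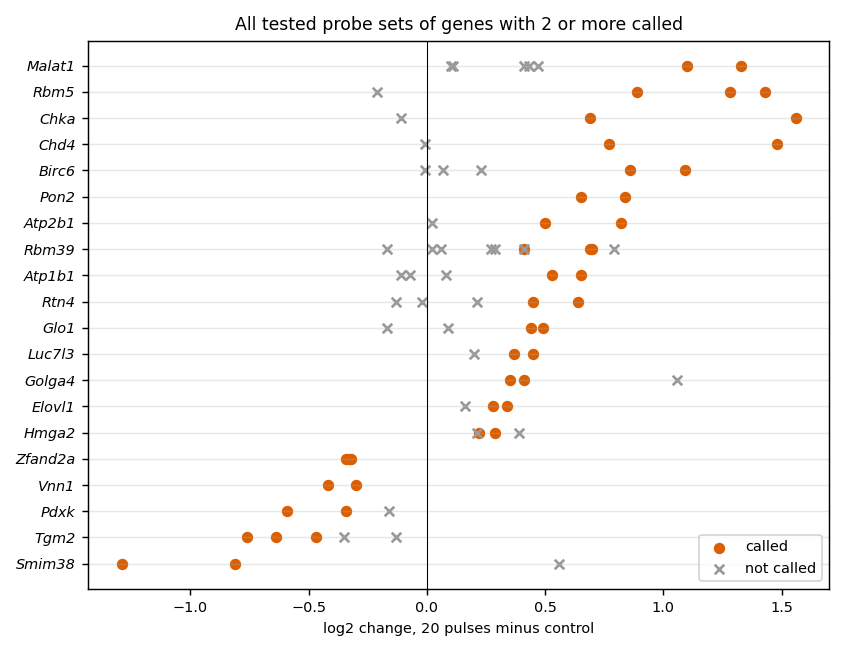
Each row is a gene with at least 2 called probe sets, and each point a tested probe set of the gene at its log2 change of 20 pulses against control. Orange circles were called and grey crosses were not. Zfand2a, Vnn1 and Pon2 have no uncalled probe set, whereas Birc6, Atp1b1 and Rbm39 have several near 0.

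Among the genes of Ca2+ handling a single pump was called. Of 22 tested genes of Ca2+ pumps, channels and stores, 1 rose and 0 fell (median -0.01, against -0.04 over all genes by their brightest probe set, of which 0.75% rose and 0.331% fell). The gene was Atp2b1, the plasma membrane Ca2+ pump PMCA1. It read 1160, 1175, 824.5 and 802.7 in the controls and 1535, 1786, 1808 and 1863 after 20 pulses, a change of 0.82 (SE 0.12, adjusted p = 0.00632), 0.57 against controls 1 and 2 and 1.07 against controls 3 and 4. The groups did not meet, and the call held under every alternative. A second probe set of Atp2b1 rose by 0.50 (adjusted p = 0.0248), from 624 to 815.3 in control to 951.6 to 1125, and a dim one was at 0.02. The main probe set of Atp2a2, the Ca2+ pump of the endoplasmic reticulum, read 7348 in control and 7238 after 20 pulses (-0.02). That of the inositol trisphosphate receptor Itpr3 read 377.4 and 377.1, and that of Itpr2 605.2 and 541.7 (-0.17, adjusted p = 0.526). Among 23 genes of calmodulin, its kinases and calcineurin, limma called 0 by any probe set (median -0.01). By the brightest 3 (13.0%, against 15.3% of all genes) had an unadjusted p under 0.05. The 23 genes ranged from -0.51 for Camk4, a nuclear calmodulin kinase, to 0.49 for the Ca2+-dependent kinase Prkca, neither called.

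Immediate early genes, which many cells switch on soon after a Ca2+ rise, had a median change of -0.08. Of 27 tested, 0 were called in limma by the brightest probe set, and 4 (14.8%, against 15.3% of all genes) had an unadjusted p under 0.05. By another probe set Jun, a subunit of AP-1, fell. Jun read 515.9, 473.6, 281.8 and 313.4 in the controls and 158.3, 182.1, 176.9 and 226.5 after 20 pulses (change -0.94, SE 0.18, adjusted p = 0.0243). All pulses arrays were below all controls, but controls 1 and 2 were the high ones, and the change was -1.28 against them and -0.60 against controls 3 and 4 (adjusted p = 0.107). The other probe set of Jun was at -0.10. By the brightest probe set 17 of the 27 genes were higher in controls 1 and 2 than in controls 3 and 4 (51.3% of all genes were). Among the 17, Gadd45g read 1141 and 1150, then 512.9 and 574.1, and 348.4 to 488.9 after 20 pulses (change -0.90, adjusted p = 0.142). Fos read 630.2 and 588.8, then 285.9 and 307.8, and 322.3 to 363.2 after 20 pulses (adjusted p = 0.776).

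The promoters of called genes were searched on both strands, from 250 bases before to 50 after the RefSeq start (GRCm38.p6), for the Ca2+- and cAMP-responsive CRE (TGACGTCA), the AP-1 site (TGANTCA), a short heat shock element (GAANNTTC) and the CArG core of serum response elements. At least 1 such window was found for 182 of the 232 genes that rose, 56 of the 78 that fell and 10919 of all 13599 tested. The CRE stood in 2.2% of the genes that rose, in 7.14% of those that fell (4 genes: Cnnm4, Ppm1a, Tra2a and Zfand2a) and in 3.27% of all tested. For AP-1 the shares were 6.04%, 5.36% and 6.94%. The heat shock element stood in 20 of the 182 genes, 3 of the 56 and 785 of all 10919. The CArG forms searched stood in 0 of either called set and in 0.0824% of all. These are descriptions of letters, without a test. The 3 windows below are shown because they belong to a gene that fell by all of its probe sets (Zfand2a), to the immediate early gene that fell (Jun) and to a mitotic gene that rose (Cenpe), and capitals mark the CRE or heat shock element found.
Zfand2a, chr5:139484442-139484741, minus strand, CRE: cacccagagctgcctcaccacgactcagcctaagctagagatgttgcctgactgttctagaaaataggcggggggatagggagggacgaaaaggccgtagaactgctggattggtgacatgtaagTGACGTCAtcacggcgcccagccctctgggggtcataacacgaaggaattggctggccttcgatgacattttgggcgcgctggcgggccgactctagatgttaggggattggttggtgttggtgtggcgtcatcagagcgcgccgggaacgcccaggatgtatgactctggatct
Jun, chr4:95052173-95052472, minus strand, heat shock element: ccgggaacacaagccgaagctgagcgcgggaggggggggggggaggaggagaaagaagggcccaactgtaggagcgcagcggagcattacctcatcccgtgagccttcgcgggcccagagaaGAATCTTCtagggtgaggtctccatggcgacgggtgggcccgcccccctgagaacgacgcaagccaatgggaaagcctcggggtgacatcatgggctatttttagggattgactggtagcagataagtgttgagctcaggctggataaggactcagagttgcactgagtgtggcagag
Cenpe, chr3:135212313-135212612, plus strand, CRE: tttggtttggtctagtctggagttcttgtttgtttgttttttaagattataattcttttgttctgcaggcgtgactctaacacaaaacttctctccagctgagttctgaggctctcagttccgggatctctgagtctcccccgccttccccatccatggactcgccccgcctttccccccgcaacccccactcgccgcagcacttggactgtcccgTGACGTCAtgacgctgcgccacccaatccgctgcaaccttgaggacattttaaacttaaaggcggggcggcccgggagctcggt

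Of 29 chaperone genes none was called in limma by its brightest probe set, and the median was -0.12 (-0.16 and -0.10 against the pairs), against -0.04 over all genes. The change was below 0 in 24 of the 29, against 58.3% of all genes, and 14 were lower at an unadjusted p under 0.05, against 8.49% of all genes. Under hybridization control scaling the list median was 0.04, while that of all probe sets moved from -0.03 to 0.12. It was also below that of all probe sets under median scaling (-0.08 and 0.01) and quantile normalization (-0.03 and -0.01). The sign of the list median depended on the scaling, so only its place relative to all probe sets is described. By other probe sets Hspa4, a co-chaperone of HSP70, rose (0.59, adjusted p = 0.013) and Cct4, a subunit of the TRiC chaperonin, fell (-0.17, adjusted p = 0.0499), a call that ended under 3 scalings. The bright probe set of Hspa4 was at 0.01. The lowest member was the inducible HSP70 gene Hspa1a, which read 5717, 5219, 260.3 and 283.6 in the controls and 140.1, 149.1, 143.6 and 185 after 20 pulses (change -2.80, adjusted p = 0.0914). Its change was -4.89 against controls 1 and 2 and -0.71 against controls 3 and 4. The brightest probe set of the near-identical Hspa1b, which could share transcripts with it, read 10269, 10477, 3507 and 3547 in control and 2682 to 2996 after 20 pulses. On these probe sets all controls were above all pulses arrays, and controls 1 and 2 were far above controls 3 and 4. On the dimmer probe sets of Hspa1b the groups overlapped. Their changes were -2.72 and -2.71 against controls 1 and 2 but -0.12 and 0.10 against controls 3 and 4.

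Most lineage markers of the blastocyst were not called. Sox17, a primitive endoderm factor, was the only one of the 10 markers called. It read 702.8, 637.3, 530.5 and 649.1 in the controls and 1282, 1257, 1273 and 1345 after 20 pulses, a change of 1.00 (SE 0.20, adjusted p = 0.0269). The groups were far apart, whereas the Ca-free arrays, which enter the same model, varied widely (659 ± 266.2, SD, n = 4). The call ended against controls 1 and 2 only (0.91, adjusted p = 0.149), with no filter, with no intensity trend, with the Actb covariate and when any single array other than control 1 was left out. A dim second probe set was at 0.34. Neither other factor was called: Gata6 read 4558 ± 222.3 in control and 4518 ± 198.6 after 20 pulses (SD, n = 4 each) and Gata4 222.3 ± 31.99 and 172.9 ± 13.11 (change -0.31, adjusted p = 0.309). By their brightest probe sets 1 of 23 primitive endoderm genes rose, with a list median of 0.00. In limma 7 of them (30.4%, against 15.3% of all genes) had an unadjusted p under 0.05, 4 higher and 3 lower.

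In the epiblast list 1 of 23 genes rose and the median was 0.00. At an unadjusted p under 0.05 in limma there were 8 (34.8%, against 15.3% of all genes), 5 higher and 3 lower. Prdm14, a pluripotency factor that restrains DNA methylation, read 554.7, 567.3, 556.8 and 680.7 in the controls and 826.2, 896.3, 945.6 and 962.5 after 20 pulses (change 0.60, SE 0.09, adjusted p = 0.00632). Control 4 was the highest control and still below the lowest pulses array, and the call held under every alternative. Pou5f1 (-0.03), Nanog (0.00) and Sox2 (0.14), the core pluripotency factors, were not called. Pou5f1 read 4708 to 5665 in control and 4872 to 5172 after 20 pulses. Of 22 trophectoderm genes limma called 0 (median -0.05). At an unadjusted p under 0.05 there were 7 (31.8%, against 15.3% of all genes), 3 higher and 4 lower. Cdx2, the trophectoderm factor, read 4618, 4609, 3721 and 3545 in the controls and 4823, 4845, 4811 and 4670 after 20 pulses (change 0.22, adjusted p = 0.211), with 0.05 and 0.40 against the pairs. Its pulses arrays lay just above controls 1 and 2. Eomes (-0.07), Gata3 (-0.11) and the keratin Krt8 (-0.07) were not called, nor was Elf5, a later trophoblast factor with the highest change of the list (0.87, adjusted p = 0.0973).

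Genes of DNA methylation had the highest median of the 36 lists, 0.13, from 11 genes. Tet1, which oxidises 5-methylcytosine, read 674.7, 649.1, 486.4 and 544.2 in the controls and 1046, 987, 1018 and 1049 after 20 pulses, a change of 0.78 (SE 0.10, adjusted p = 0.00461). It was called against either pair (0.61 and 0.95), and its brighter probe set was at 0.24 (adjusted p = 0.206). Tet2, a related oxidase, read 1707, 1792, 1928 and 2139 against 3038, 2639, 2962 and 3046 (change 0.62, adjusted p = 0.0459). Uhrf1, which guides the maintenance methyltransferase to replicated DNA, read 507.1 to 732.5 against 841.7 to 934 (0.51, adjusted p = 0.0442). In all of these the groups were separate, but Tet2 was called against neither pair alone and Uhrf1 only against controls 3 and 4. By any probe set 3 of the 11 genes rose, against 1.71% of all genes, but by the brightest 1 did (Tet2), against 0.75%. The shares by any probe set, here and below, were not matched for the number of probe sets of a gene. The brightest probe set of Uhrf1 was at 0.28 (adjusted p = 0.202) and the other of Tet2 at 0.16 (adjusted p = 0.706). The methyltransferases Dnmt1 (-0.03), Dnmt3a (0.53, adjusted p = 0.0687), Dnmt3b (0.13) and the cofactor Dnmt3l (-0.15) were not called.

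In the list of NuRD and chromatin remodellers 2 of 31 genes rose by the brightest probe set and 3 by any (median 0.01). Besides Chd4 these were Smarca5, the ISWI ATPase, at 2823, 3219, 2107 and 2317 in the controls and 3415, 3537, 3950 and 3672 after 20 pulses (0.49, adjusted p = 0.0324), and Atrx, a remodeller of repeats, at 1484 to 1805 and 2019 to 2338 (0.40, adjusted p = 0.0282). Both lay lowest in controls 3 and 4, and neither was called against controls 1 and 2 only (0.27 and 0.28). The brightest probe set of Smarca5, at 4737 and 5141, was not called (0.11, adjusted p = 0.457), nor were those at 0.17 and 0.59. The called probe set of Atrx was its brightest, and its others, from -0.16 to 1.30, were not called. None of the 49 tested genes on a list of Polycomb, histone methyl and acetyl enzymes was called by limma (median -0.03). Aebp2, the PRC2 partner that rose, was not on this list. Of the 49, 9 (18.4%, against 15.3% of all genes) had an unadjusted p under 0.05.

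Splicing factors held more called genes than any other of the 36 lists, and theirs was among the longest. By any probe set 8 of 70 rose and 1 fell, against 1.71% and 0.574% of all genes. Many splicing genes had several tested probe sets, which gives more occasions for such a call, and the shares were not matched for this. By the brightest probe set 1 rose and 1 fell, and 45 of the 70 were below 0 (median -0.06). The risen ones were Prpf19, Sart3, Srsf1, Srsf3, Rbm5, Rbm39, Luc7l3 and Sfpq. Srsf3, an SR protein, rose by 0.61 in a probe set of 1353 ± 67.24 in control and 2089 ± 161.7 after 20 pulses (SD, n = 4 each; adjusted p = 0.0204), while its brightest was at 0.04. Sfpq, a paraspeckle protein, rose by 0.47 in 1 probe set, and its brightest was at 0.05. The exception was Luc7l3, whose brightest probe set rose by 0.45 (adjusted p = 0.00642). Tra2a, an enhancer-binding splicing regulator, fell in its brightest probe set, from 9252, 9749, 9036 and 9745 to 8174, 7018, 8154 and 7311 (-0.30, SE 0.06, adjusted p = 0.0282). Its other 3 probe sets, all dim, were at 0.19 to 0.60.

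In nonsense-mediated and other mRNA decay, Dcp2, the decapping enzyme, rose beside Smg1. Dcp2 read 1305, 1165, 992.8 and 1129 in the controls and 1612, 1652, 1497 and 1694 after 20 pulses (0.49, SE 0.09, adjusted p = 0.017), and its call ended against controls 1 and 2 only (0.38). The 18 genes of the list had a median of -0.04.

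Among 54 genes of the cell cycle and mitosis 2 rose by the brightest probe set, and the median was -0.04. Cenpe, the kinetochore motor whose promoter is shown above, read 1571, 1534, 1222 and 1239 in the controls and 1968, 2105, 2297 and 2434 after 20 pulses (0.65, SE 0.10, adjusted p = 0.00697), called against either pair (0.49 and 0.82). Cdc25a, the phosphatase that activates cyclin-dependent kinases, read 3110, 3154, 3133 and 3133 against 3916, 4195, 3756 and 3579 (0.30, SE 0.06, adjusted p = 0.0229). Its controls were almost identical, and the change was 0.30 against each pair, but the call ended against controls 1 and 2 only (adjusted p = 0.0982). A second probe set of each gene was not called (0.05 and 0.10). Of 24 apoptosis genes 0 were called in limma by their brightest probe set, and 3 (12.5%, against 15.3% of all genes) had an unadjusted p under 0.05. The inhibitors of apoptosis Birc6 and Xiap rose by other probe sets. Birc6 read 394.3, 424, 225.8 and 215.4 in the controls and 618.7, 600.1, 740.7 and 778.9 after 20 pulses (1.09, SE 0.18, adjusted p = 0.00933). A second probe set of Birc6 rose by 0.86, while the brightest, at 2802 and 2932, was at 0.07. Xiap rose by 0.61 (adjusted p = 0.0269), with 0.41 and 0.81 against the pairs, and its call ended against controls 1 and 2 only (adjusted p = 0.177). The other probe sets of Xiap lay between -0.15 and 0.15, with the brightest at 0.12, and were not called.

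Of 38 adhesion and junction genes 2 rose and 1 fell by the brightest probe set, namely Cdh2, the integrin Itgav and Tm4sf4, and Atp1b1 rose by another. Itgav read 2192, 1896, 1929 and 1923 in the controls and 2487, 3120, 2623 and 2718 after 20 pulses (0.45, SE 0.08, adjusted p = 0.0101), and its call ended against controls 1 and 2 only (0.41). Cdh1, the epithelial cadherin of the whole blastocyst, read 9389 ± 484.3 in control and 9152 ± 609.9 after 20 pulses (SD, n = 4 each; change -0.04). Among 27 matrix genes Plod1, a collagen lysyl hydroxylase, fell (-0.46, adjusted p = 0.0332) and Nid1 rose by a dim probe set.

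The remaining lists with a call held 1 or 2 called genes each. Hsp90b1, the HSP90 of the endoplasmic reticulum, rose by 0.40 (adjusted p = 0.00786), while its brightest probe set was at -0.16. The serine synthesis enzyme Psat1 fell by 0.23 (adjusted p = 0.0488), the actin crosslinker Actn4 fell by 0.26 (adjusted p = 0.0432) and the glucose transporter Slc2a1 rose by 0.43 (adjusted p = 0.03). The calls of Psat1 and Actn4 ended under quantile, median and hybridization control scaling, and those of Psat1, Actn4 and Slc2a1 against controls 1 and 2 only and without most of the single arrays. Mrps30, of the mitochondrial ribosome, fell by 0.62 (adjusted p = 0.0486), with control 3 at 2466 inside the range of the pulses arrays (2292 to 2653). Against controls 3 and 4 only the call of Mrps30 ended (-0.39). No gene of the cytosolic ribosomal proteins (43 tested, median -0.13), oxidative phosphorylation (71, -0.04), proteasome (39, -0.09), RNA polymerase II and Mediator (71, -0.01), p53 targets (22, 0.02), antioxidant defence (27, 0.01), imprinted genes (27, -0.07), maternal and oocyte genes (21, -0.09) or 2-cell stage genes (8, -0.10) was called in limma by any probe set. At an unadjusted p under 0.05 their brightest probe sets numbered 20, 9, 14, 6, 1, 4, 5, 6 and 2 in that order, against 15.3% of all genes. All 20 of the ribosomal proteins were lower. The median of the ribosomal list was 0.03 under hybridization control scaling, which moved that of all probe sets from -0.03 to 0.12.

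Markers of other cells were mostly dim, and limma called 0 of them. At an unadjusted p under 0.05 there were 3 for fibroblasts (37.5%), 2 for cumulus and granulosa cells (28.6%) and 1 for blood (12.5%). The other lists had 0, and the share of all genes was 15.3%. The summed signal of 7 tested of 16 markers of cumulus and granulosa cells was 2281 to 2434 in control and 1760 to 2296 after 20 pulses, and that of 12 of 16 oviduct and uterine markers 3739 to 4058 and 3163 to 3872. For 8 of 17 blood and macrophage markers it was 2072 to 2374 and 2077 to 2402, for 8 of 14 fibroblast markers 3048 to 3189 and 2348 to 2946, and for 8 of 14 sperm markers 2332 to 2642 and 1871 to 2632. The other markers had a mean signal under 100. The medians of these 5 lists lay between -0.20 and 0.07. The fibroblast sum was lower in every pulses array than in any control, the other sums overlapped between the groups, and their part in the results was not tested.

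**Figure D5:**
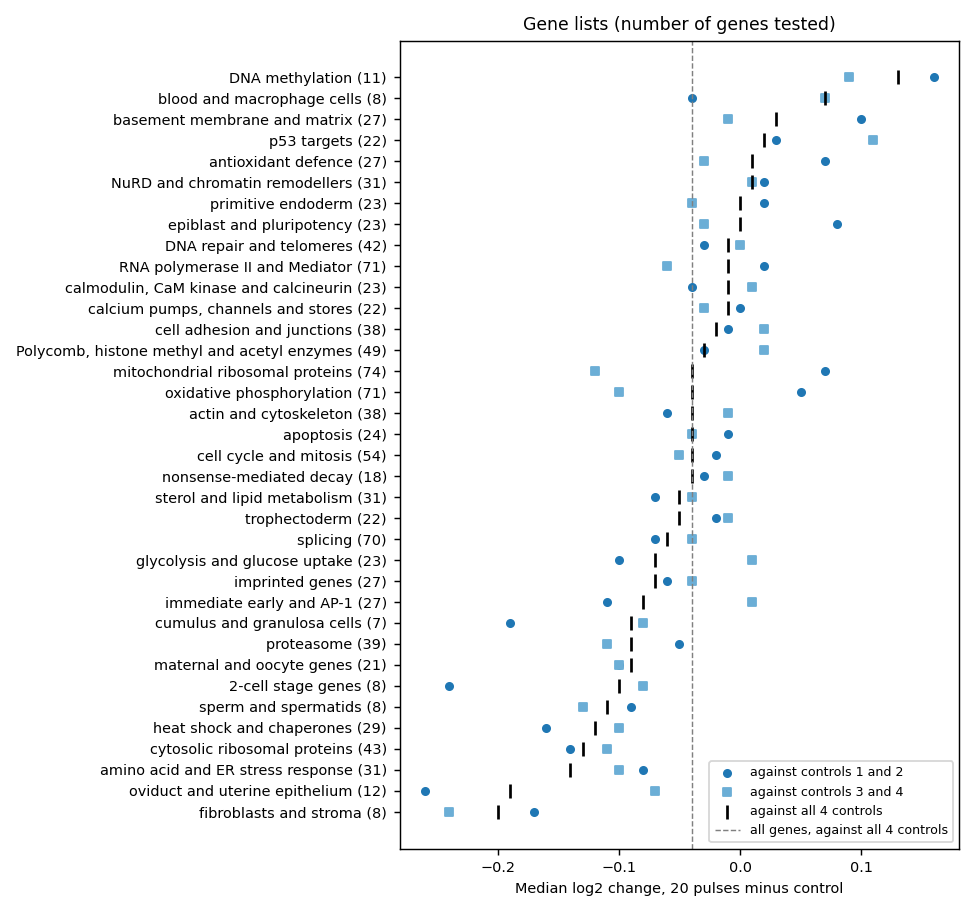
Each row is a gene list, with the number of tested genes in brackets, and the horizontal axis is the median log2 change of 20 pulses against control by the brightest probe set of each gene. Circles are medians against controls 1 and 2, squares against controls 3 and 4, bars against all 4 controls, and the dashed line is the median of all genes (-0.04). Medians range from -0.20 for fibroblast and stroma markers to 0.13 for DNA methylation, and many lists differ more between the pairs of controls than from the dashed line.

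The named genes were also set against the blastocysts of Ca-free medium. This comparison shares the pulses arrays by which the genes were chosen, so it is given as values and not as independent support. Between 20 pulses and Ca-free medium 23.4% of all probe sets were higher after 20 pulses and 9.22% lower, and 21 of the 53 named and called genes differed. Aebp2 (174.5 ± 17.44 in Ca-free medium, SD, n = 4; difference 0.93, adjusted p = 0.000904), Ctsb (150.7 ± 44.34, 0.89), Ndel1 (161.1 ± 40.3, 0.86), Dnajc13 (64.68 ± 36.3, 1.32) and D630023F18Rik (98.84 ± 50.35, 1.58) were higher after 20 pulses. So were Sox17 (1.02, adjusted p = 0.0032), Tet1 (0.34) and Tet2 (0.57). Smg1, Nid1, Sart3, Atp2b1, Birc6 and Cenpe did not pass this test, with differences from -0.25 to 0.06, and read 352.4, 340.3, 352.9, 1852, 726.9 and 2483 in Ca-free medium. Chd4 read 406.3 ± 39.19 in Ca-free medium and was lower after 20 pulses (-0.89, adjusted p = 0.0217). Of the genes that fell, Alppl2 (-0.39), Tm4sf4 (-0.71), Smim38 (-0.84), Mpped1 (-0.83) and Jun (-0.60) were lower than in Ca-free medium as well, and Tcf25 was higher (0.37).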

How the data were processed

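MAS5 made the values, per the submitters' processing notes (its version is not recorded there). The table the authors deposited holds linear intensity for 45037 probe sets and 64 array controls, with a 2% trimmed mean of 150.001 on every array, and per the labels the array probes were biotinylated cRNA made from total RNA with a small-sample assay. Intensities were rescaled to a trimmed mean of 500, 32 was added and log2 taken. The 27808 probe sets with a mean of at least 100 over 12 arrays were fitted with limma 3.58.1 in R 4.3.3 (lmFit, eBayes with trend, all 12 arrays, no block), and Benjamini-Hochberg adjusted p under 0.05 was the threshold. Fits with only controls 1 and 2 or 3 and 4 left out the other pair of controls and held 10 arrays in all. Array controls were compared by exact two-sided permutation tests. The platform's annotation gave 1 gene for 34945 probe sets, more than 1 for 932 and none for 9160, and 34741 symbols were updated through RefSeq identifiers.

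Named are the 12 largest increases and 12 largest decreases by the smaller change against a pair of controls (called, single gene, groups not overlapping, mean of at least 200 in the higher group), the 6 called probe sets on which the pairs disagree most, up to 3 called members of each of 36 lists, 10 lineage markers and the other probe sets of these genes. Members and lists were chosen with earlier results of these data known; genes described outside the rule were chosen after their values were seen. Lists use the brightest tested probe set of a gene.

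On simulated data for this comparison 54%, 88%, 96% and 100% of probe sets changed 1.5-, 2-, 3- and 4-fold were recovered among 27808, with 10 false calls; noise was drawn separately for each probe set. Residuals of control and pulses arrays of the same number correlated at 0.101, -0.0439, -0.0107 and 0.0807, so the numbers were not taken as pairs. Alternatives were other scalings, added values, filters, models, thresholds, pairs of controls and left-out arrays.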

Additional observations from a re-analysis of the deposited data

Results flagged for a closer look

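Among 136 groups of 4 arrays of the named probe sets, 3 had an array far from the other 3, and chance gives about 1 in 20 groups. Rtel1 read 262.7 in pulses array 2, against 142.1 to 156.8 in the other pulses arrays. Prdm14 read 680.7 in control 4, against 554.7 to 567.3 in the other controls. Mrps30 read 2466 in control 3, against 4210 to 4499 in the other controls.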

How the results depend on the processing

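Against 307 probe sets higher and 104 lower, quantile normalization, deposited values, added values of 1 and 100, a minimum of 300 and a model of the 8 arrays stayed within 1.5 times. Hybridization control scaling, which moved the median of all probe sets from -0.03 to 0.12, gave 1156 higher and 24 lower, relative to that shift. Median scaling gave 43 lower, no filter 64 lower, no intensity trend 126 and 29, array weights 506 and 211, controls 1 and 2 only 149 and 52, controls 3 and 4 only 615 and 171, the Actb covariate 120 and 52, an adjusted p under 0.01 56 and 7, and a 1.5-fold minimum 149 and 32. A replicate block gave 178 and 49; 2 of the 4 pulses arrays correlated best with the control of their own number, a hint from the data only. With an array left out the counts ran from 81 (without pulses array 3) to 299 higher and from 23 (without control 3) to 83 lower, and without pulses array 4 they were 86 and 24, without pulses array 2 123 and 29, without control 4 162 and 53. Called under every scaling were 260 and 16 probe sets, with any array left out 68 and 11, and under all of these and against both pairs 50 and 4. The 319 differences between the pairs of controls became 155 (median scaling), 156 (hybridization control scaling), 131 (no trend), 1050 (array weights) and 66 to 309 (an array left out, lowest without control 2), all chosen after seeing the data. Of the 53 named calls 13 held under all alternatives that tested them, none turned its direction, and 36 ended with the Actb covariate. Among uncalled markers the sign of Gata6 turned under 7 settings, Pou5f1 5, Nanog 4, Gata3 3, Eomes and Krt8 2 each. The causes were not tested. Dim probe sets near the added value limit the size of a change that can be read.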

Other observations

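Subunits of the complexes that fold and hold chromosomes were listed after the values had been seen. By any probe set 6 of 23 genes rose (1.71% of all genes did) and by the brightest 4 (0.75%), with 0 lower by limma. The median was 0.07 (all genes -0.04). At an unadjusted p under 0.05 there were 8 higher and 1 lower, together 39.1%, against 15.3% of all genes. Ncapg, a condensin subunit, read 723.2, 579.2, 418.4 and 416 in the controls and 1135, 1026, 1055 and 1103 after 20 pulses (change 1.01, SE 0.14, adjusted p = 0.00632). Smc5 and Smc6, partners in a DNA repair complex, rose by 0.45 and 0.52 (adjusted p = 0.00632 each). Smc6 read 1094, 1139, 1214 and 1202 against 1683, 1674, 1786 and 1571, and was higher than either pair of controls by 0.57 and 0.46. Ncapd2 (0.70), the cohesin ring subunit Smc1a (0.52) and its partner Stag1 (0.33) rose as well.

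Of 749 probe sets of long non-coding RNAs 5 rose and 2 fell (1.1% and 0.374% of all tested probe sets did). They were 2 of Malat1 and 1 each of Hoxd3os1, 4632427E13Rik (0.83) and Oip5os1 (1.21, groups overlapping) among the increases, and Snhg1 and 4931428L18Rik (-0.67) among the decreases. Hoxd3os1 read 176.2, 179.4, 228 and 232 in the controls and 325.7, 335.8, 359.7 and 318.8 after 20 pulses (0.65, adjusted p = 0.0173), and Snhg1, a host of small nucleolar RNAs, read 10553, 10735, 11633 and 11406 against 8792, 8788, 8547 and 8853 (-0.34, SE 0.05, adjusted p = 0.00632). The pulses arrays of Snhg1 lay close to each other, and its call ended under hybridization control scaling and with no intensity trend. Ywhaz, a 14-3-3 protein, was called in both directions, -0.40 in a probe set of 8245 to 10102 in control and 0.39 in another of 591.5 to 691.8. With the probe sets split into 5 groups by signal, 94 of the 5562 brightest rose and 55 fell, against 23 and 6 of the 5562 dimmest.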
